A study of Mus musculus with 6 samples.

Results

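The glycolysis genes described here are SLC2A1, HK1, HK2, PFKL, PFKP, ALDOA, PGK1, ENO1, PKM and LDHA, chosen by symbol as a glucose transporter and enzymes that together stand for most steps from glucose uptake to lactate. All 10 symbols were found among the 24908 genes of the deposited table, and all 10 were among the 12361 genes that averaged 1 FPKM or more in the 6 libraries. Their expression was followed in bulk RNA-seq of 6 prostate libraries from FVB mice 12 weeks old, with 1 library each for the anterior (AP), dorsolateral (DLP) and ventral (VP) lobes of a wild-type mouse (WT) and of a littermate heterozygous for the Hi-MYC transgene (MYC). In the Hi-MYC model, an ARR2Pb promoter drives human c-MYC in the prostate epithelium, and the sequenced mice received the same purified diet. The study asked how MYC overexpression changes the prostate transcriptome as tumors begin, lobe by lobe. Each genotype is 1 mouse and each lobe and genotype 1 library of dissociated cells, so no comparison has a replicate, no p-value was computed, and genotype and individual mouse cannot be told apart.

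Glycolysis converts glucose to pyruvate in the cytosol and yields ATP, and lactate dehydrogenase then reduces pyruvate to lactate and regenerates the NAD+ that the pathway needs. Many tumors take up much glucose and release lactate even in the presence of oxygen, and MYC and the hypoxia-inducible factors are textbook activators of several of these genes. The luminal cells of the prostate are known for a different use of glucose carbon, since they secrete citrate into the prostatic fluid.

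MYC binds the E-box CACGTG, and the hypoxia-inducible factors bind a core of ACGTG, so the 250 bases before the annotated starts of the members were searched for both words on both strands. The windows come from RefSeq (assembly GRCm38.p6), where all 10 members were matched with 17 windows, several genes having more than 1 start. CACGTG was found in 1 of the 10 members, LDHA, and in 6.86% of the 27025 genes with a window. ACGTG, which every CACGTG contains on both strands, was found in 6 of the 10 members (SLC2A1, HK2, ALDOA, PGK1, PKM and LDHA), in 7 of their 17 windows and in 18.5% of all genes and 16.6% of all 32851 windows. The windows of the members hold 49.6% to 71.2% G and C, beside a median of 52.4% over all windows. HK1, PFKL, PFKP and ENO1 have neither word in these windows. A match describes the letters only. The windows below belong to the members that differed most between MYC and WT (SLC2A1, HK2 and PKM), to PGK1, which lay above WT in VP where most members lay below, and to LDHA. They are written 5′ to 3′ along the gene up to the base before its start, with ACGTG or its complement CACGT in capitals.
SLC2A1, chr4:119108495-119108744, plus strand: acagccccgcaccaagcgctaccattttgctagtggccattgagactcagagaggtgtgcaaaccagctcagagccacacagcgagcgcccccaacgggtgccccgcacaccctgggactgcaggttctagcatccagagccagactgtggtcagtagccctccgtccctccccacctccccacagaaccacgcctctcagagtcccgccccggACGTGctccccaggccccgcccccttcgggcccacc
HK2, chr6:82774455-82774704, minus strand: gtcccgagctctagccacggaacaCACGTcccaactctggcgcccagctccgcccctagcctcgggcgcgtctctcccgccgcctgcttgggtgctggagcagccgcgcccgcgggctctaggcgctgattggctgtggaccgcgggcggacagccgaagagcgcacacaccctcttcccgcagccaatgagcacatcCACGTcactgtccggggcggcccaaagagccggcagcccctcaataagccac
PGK1, chrX:106186850-106187099, plus strand: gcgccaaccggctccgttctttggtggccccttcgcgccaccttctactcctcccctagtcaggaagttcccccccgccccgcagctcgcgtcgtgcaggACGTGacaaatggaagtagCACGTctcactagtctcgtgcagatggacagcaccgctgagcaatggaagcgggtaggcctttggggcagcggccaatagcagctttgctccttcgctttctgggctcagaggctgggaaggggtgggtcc
PKM, upstream start, chr9:59656326-59656575, plus strand: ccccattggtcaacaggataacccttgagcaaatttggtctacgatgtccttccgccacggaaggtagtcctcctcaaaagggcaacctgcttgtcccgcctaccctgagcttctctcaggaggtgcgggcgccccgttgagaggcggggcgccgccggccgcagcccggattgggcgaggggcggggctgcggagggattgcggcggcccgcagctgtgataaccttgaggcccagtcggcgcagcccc
PKM, downstream start, chr9:59656977-59657226, plus strand: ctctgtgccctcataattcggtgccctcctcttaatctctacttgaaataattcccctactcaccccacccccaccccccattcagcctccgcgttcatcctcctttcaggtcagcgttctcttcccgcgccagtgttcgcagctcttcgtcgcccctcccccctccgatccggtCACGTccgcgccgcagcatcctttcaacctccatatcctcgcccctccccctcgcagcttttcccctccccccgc
LDHA, chr7:46845554-46845803, plus strand: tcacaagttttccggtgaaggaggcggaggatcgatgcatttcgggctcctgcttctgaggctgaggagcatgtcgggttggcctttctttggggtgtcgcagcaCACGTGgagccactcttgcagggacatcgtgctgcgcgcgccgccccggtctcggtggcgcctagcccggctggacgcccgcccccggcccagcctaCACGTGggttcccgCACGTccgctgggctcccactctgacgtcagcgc
The E-boxes of LDHA begin 145 and 48 bases before the start, and a further ACGTG core begins 34 bases before it. HK2 has cores at 226 and 52 bases, PGK1 at 150 and 131 bases and SLC2A1 at 36 bases. Of the 2 PKM starts, only the downstream window holds a core, 75 bases before the start.

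The deposited values, which are not whole numbers, were read as FPKM, which divide the fragments of a gene by the length of its transcript and by the mapped fragments of the library, so they allow levels to be compared between genes. The spacing of low FPKM values corresponded to between 25.4 M (WT AP) and 50.1 M (MYC AP) mapped reads per library, and by this estimate the member with the fewest reads, PFKP in MYC VP, had about 278. Each contrast is given as a log2 ratio, log2 of (FPKM + 1) over (FPKM + 1), and the 95% interval beside it is an exact binomial interval of the read ratio. Such an interval covers counting error alone, not the spread between mice, and it leaves out the added 1, so it lies off centre for low genes. The luminal keratins KRT8 and KRT18 were between 388 and 1611 FPKM in every library. The gene listed as MYC, to which mouse and human reads may both map, had 226, 201 and 230.0 FPKM in WT VP, DLP and AP and 1696, 586 and 231 FPKM in MYC VP, DLP and AP. It thus separated the genotypes in VP and DLP, and in AP it could not serve as a check of the labels. The paper reports the transgene mainly in the VP and describes the AP as mostly unaffected by MYC.

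**Figure D1:**
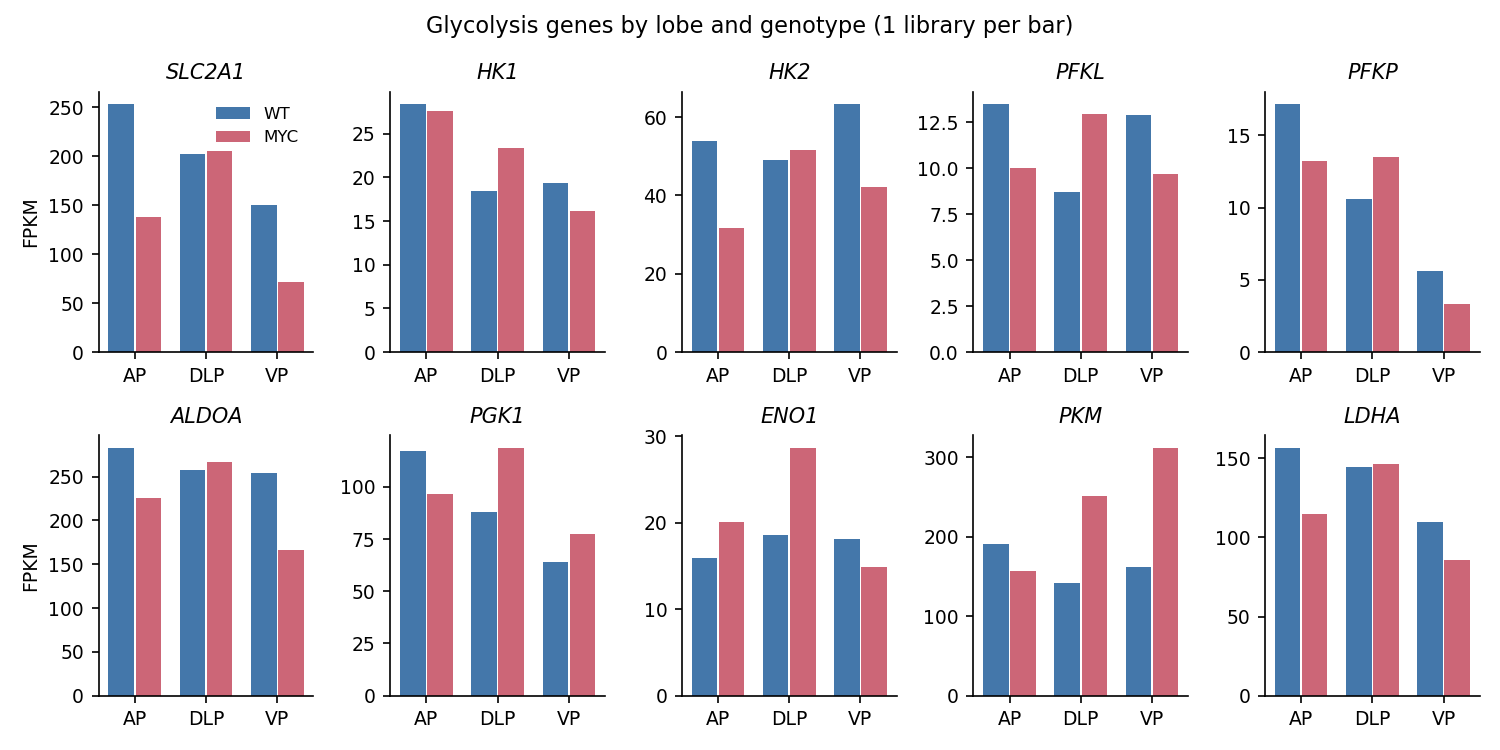
FPKM (vertical axes, each starting at 0) of the 10 glycolysis genes in AP, DLP and VP, with WT in blue and MYC in red and 1 library per bar. WT AP is the highest bar of 6 genes, and MYC VP is the lowest bar of 6 genes and the highest of PKM. ENO1 is among the 6 lowest in MYC VP only without its copy ENO1B.

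The 10 genes together were most abundant in WT AP, with a summed level of 1129 FPKM (0.302% of all FPKM of the library), and least abundant in MYC VP, with 798 FPKM (0.165%). The sums of the other libraries were 861 FPKM in WT VP, 939 FPKM in WT DLP, 1119 FPKM in MYC DLP and 834 FPKM in MYC AP. On the deposited scale, the summed level was thus lower in MYC than in WT in VP and AP and higher in DLP. The VP sums lay close together, with PKM higher and SLC2A1 and ALDOA lower in MYC. Their order was not tested under the other scalings, and a shift of the size those give could turn it. In bulk tissue, fewer cells of a type and less RNA per cell cannot be told apart. WT AP had the highest level of 6 members and MYC VP the lowest level of 6. ENO1 is among the latter, but with its copy ENO1B added it was lowest in WT AP (37.2 FPKM) and not in MYC VP (49.7 FPKM).

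In VP, 8 of the 10 glycolysis genes were lower in MYC than in WT and 2, PGK1 and PKM, were higher, with HK1 and PGK1 changing sign under 1 of 5 other scalings and ENO1 changing sign when summed with its copy ENO1B. SLC2A1, the glucose transporter, was 2.12-fold lower, PFKP 1.68-fold and ALDOA 1.54-fold. PKM, the pyruvate kinase, went the other way and was 1.92-fold higher. The members had a median log2 ratio of -0.36, beside 0.04 over all genes compared. At a threshold of 2-fold, 1 member (SLC2A1) was lower and 0 were higher, where 5.95% of all genes were lower and 6.88% higher. As a ratio to KRT8 and KRT18, SLC2A1 no longer passed (-0.80) and PKM did (1.2). At 1.5-fold, 3 members (SLC2A1, PFKP and ALDOA) were lower and 1 (PKM) higher, beside 14.9% and 16.7% of all genes.

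In DLP, all 10 members had a log2 ratio above 0 on the deposited scale, but 4 of them were within 0.07 of it and changed sign under other scalings. PKM and ENO1 stood highest, at 1.78-fold and 1.55-fold the WT level, and PFKL, PGK1, PFKP and HK1 followed at 1.26 to 1.49-fold. SLC2A1, LDHA, ALDOA and HK2 lay between 1.01 and 1.05-fold, and for SLC2A1 and LDHA the counting interval included 0. The sign of this last group depends on how the libraries are scaled to each other: of 5 other scalings, SLC2A1 and LDHA were below 0 in 5, ALDOA in 4 and HK2 in 2. The median log2 ratio was 0.32, beside 0.03 over all genes. No member passed 2-fold in either direction, where 6.46% of all genes were higher and 3.39% lower, but ENO1 summed with its copy ENO1B did (1.10). At 1.5-fold, 2 members (PKM and ENO1) were higher and 0 lower, beside 13.4% and 9.44% of all genes.

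In AP, 9 members were lower in the library labelled MYC than in WT and 1, ENO1, was higher. SLC2A1 and HK2, the transporter and the hexokinase that act at the entry of the pathway, differed most, at 1.83-fold and 1.70-fold. LDHA, PFKL, PFKP, ALDOA, PKM and PGK1 were 1.21 to 1.37-fold lower, and HK1 had a counting interval that included 0 and changed sign under 1 other scaling. The median log2 ratio was -0.34, beside 0.13 over all genes. No member passed 2-fold, where 2.05% of all genes were higher and 0.599% lower. At 1.5-fold, 2 members (SLC2A1 and HK2) were lower and 0 higher, beside 3.13% and 7.53% of all genes.

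**Figure D2:**
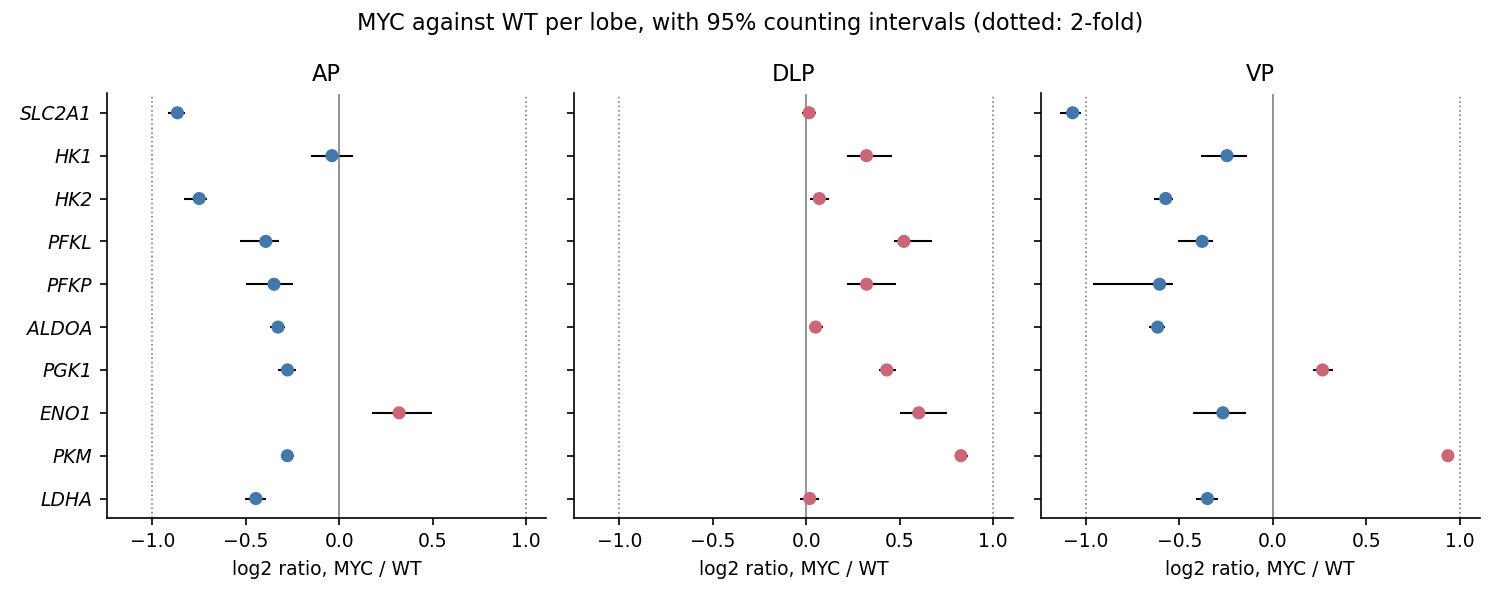
Log2 ratio of MYC over WT (horizontal axis) for each glycolysis gene in AP, DLP and VP, with 95% counting intervals as bars, ratios above 0 in red and below 0 in blue, and dotted lines at 2-fold. SLC2A1 in VP (-1.07) lies beyond 2-fold, PKM reaches 0.94 in VP and 0.83 in DLP, and the DLP points lie at or right of 0, though those of SLC2A1, LDHA, ALDOA and HK2 change sign under other scalings.

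SLC2A1 (chromosome 4, 119108745 to 119137330 in GRCm38.p6) encodes GLUT1, the transporter that carries glucose into most cells. It had 151, 203 and 253 FPKM in WT VP, DLP and AP and 71.1, 205 and 138 FPKM in MYC VP, DLP and AP. It was the member with the widest fold range after PFKP, 3.56-fold between WT AP and MYC VP. Its log2 ratio was -1.07 in VP (counting interval -1.14 to -1.03), 0.02 in DLP (-0.02 to 0.06) and -0.87 in AP (-0.91 to -0.83). The VP and AP values kept their direction in every scaling tried, between -1.34 and -0.80 in VP and between -1.02 and -0.69 in AP.

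Hexokinases trap glucose as glucose 6-phosphate. HK1 (chromosome 10, 62268855 to 62379920), the form found in most tissues, had 19.3, 18.5 and 28.3 FPKM in WT VP, DLP and AP and 16.1, 23.3 and 27.6 FPKM in the MYC lobes in the same order. HK2 (chromosome 6, 82725025 to 82774454), the inducible form that many tumors carry at high levels, had 63.2, 49.1 and 53.8 FPKM in WT and 42.2, 51.6 and 31.6 FPKM in MYC. HK2 was the more abundant form in every library, and its lowest level was in MYC AP. The log2 ratio of HK2 was -0.57 in VP (-0.63 to -0.54), 0.07 in DLP (0.02 to 0.12) and -0.75 in AP (-0.83 to -0.71). HK1 differed less than HK2 in VP (-0.25) and AP (-0.04) and more in DLP (0.32), and its sign turned under 1 of 5 other scalings in VP and in AP.

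Phosphofructokinase commits sugar to glycolysis. PFKL (chromosome 10, 77986947 to 78009807), the liver-type subunit, had 12.9, 8.69 and 13.5 FPKM in WT VP, DLP and AP and 9.66, 12.9 and 10.01 FPKM in MYC. PFKP (chromosome 13, 6579874 to 6649060), the platelet-type subunit, had 5.63, 10.6 and 17.1 FPKM in WT and 3.36, 13.5 and 13.2 FPKM in MYC. PFKP was the lowest member in VP of both genotypes and had the widest range of all 10, 5.10-fold. Both subunits were lower in MYC in VP and AP and higher in DLP: the log2 ratios of PFKL were -0.38, 0.52 and -0.39 in VP, DLP and AP, and those of PFKP -0.61, 0.32 and -0.35.

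ALDOA (chromosome 7, 126795234 to 126800994), the aldolase that splits fructose 1,6-bisphosphate, had 255, 258 and 283 FPKM in WT VP, DLP and AP and 166, 267 and 225 FPKM in MYC. It was the most abundant member in every library except MYC VP, where PKM exceeded it. Its log2 ratio was -0.62 in VP (-0.66 to -0.58), 0.05 in DLP (0.01 to 0.09) and -0.33 in AP (-0.37 to -0.29). Its retrocopies ALDOART1 and ALDOART2 had at most 1.21 FPKM.

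PGK1 (chromosome X, 106187100 to 106203699), phosphoglycerate kinase, makes the first ATP that the pathway returns. It had 64.1, 87.7 and 117 FPKM in WT VP, DLP and AP and 77.3, 119 and 96.4 FPKM in MYC. In WT its levels spread over the lobes by more than the difference between genotypes within any lobe. Its log2 ratio was 0.27 in VP (0.22 to 0.32), 0.43 in DLP (0.39 to 0.48) and -0.28 in AP (-0.33 to -0.23). The VP value was at 0 after rounding when the libraries were set to equal sums without the 20 highest genes.

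ENO1 (chromosome 4, 150236708 to 150248879), the enolase of most tissues, had 18.2, 18.5 and 15.9 FPKM in WT VP, DLP and AP and 14.9, 28.6 and 20.1 FPKM in MYC. The table also lists ENO1B, an intronless and nearly identical copy, at 20.7, 20.6 and 21.3 FPKM in WT and 34.8, 56.3 and 26.1 FPKM in MYC. Reads of these genes may have been split by the counting, so the ENO1 values alone are uncertain. ENO1 alone had log2 ratios of -0.27, 0.60 and 0.32 in VP, DLP and AP. Summed with ENO1B, the level was 38.9, 39.1 and 37.2 FPKM in WT and 49.7, 85.0 and 46.1 FPKM in MYC, and the log2 ratios were 0.35, 1.10 and 0.30. The direction in VP thus depends on whether the copy is counted, and in DLP the sum passed 2-fold.

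PKM (chromosome 9, 59656576 to 59679372), pyruvate kinase, makes pyruvate and the last ATP of the pathway. It had 163, 141 and 191 FPKM in WT VP, DLP and AP and 312, 252 and 158 FPKM in MYC. MYC VP, the lowest library for 6 members if ENO1 is taken without ENO1B, was the highest for PKM, and the 2 MYC libraries with a raised level of the gene listed as MYC were the 2 highest. Its log2 ratio was 0.94 in VP (0.91 to 0.97), 0.83 in DLP (0.80 to 0.86) and -0.28 in AP (-0.32 to -0.25). Over the other scalings it lay between 0.66 and 1.2 in VP and between 0.60 and 0.79 in DLP. The table has 1 row for PKM, so the muscle-type and the tumor-associated splice forms were not separated.

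LDHA (chromosome 7, 46842274 to 46855627) encodes the subunit of lactate dehydrogenase that favours lactate formation. It had 110, 144 and 157 FPKM in WT VP, DLP and AP and 85.9, 146 and 115 FPKM in MYC. As for SLC2A1, WT AP was its highest library and MYC VP its lowest. Its log2 ratio was -0.35 in VP (-0.41 to -0.30), 0.02 in DLP (-0.03 to 0.07) and -0.45 in AP (-0.51 to -0.39).

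Summing the measured isozymes of each step placed the members within the whole pathway of 12 steps, from glucose transport to lactate dehydrogenase, on the deposited scale alone. The enolase step counts ENO1, its copy ENO1B, ENO2 and ENO3. In VP, 6 steps were higher and 6 lower in MYC. The lower steps were glucose transport (-1.07), hexokinase (-0.49), phosphofructokinase (-0.25), aldolase (-0.61), triose phosphate isomerase (-0.04) and lactate dehydrogenase (-0.30). The higher ones were glucose 6-phosphate isomerase (0.76), GAPDH (0.27), phosphoglycerate kinase (0.27), phosphoglycerate mutase (0.45), enolase (0.29) and pyruvate kinase (0.94). The steps above 0 on this scale thus included all from GAPDH to pyruvate kinase. Within enolase, ENO1B (0.72) and ENO3 (0.475) lay above 0 and ENO1 (-0.27) and ENO2 (-0.78) below, so its sign rests on counting the copy. PGK1 was at 0 after rounding with equal sums without the 20 highest genes, and the steps themselves were not rescaled. In DLP, 11 of the 12 steps were higher, the exception being glucose transport at 0.997 times the WT level, and enolase was highest at 0.89. This count depends on the scaling, since aldolase (0.05) and lactate dehydrogenase (0.01) were near 0 and rest on ALDOA and LDHA, which were below 0 in 4 and 5 of 5 other scalings. Enolase ranked first in DLP only with ENO1B counted, since ENO1 (0.60), ENO2 (-0.39) and ENO3 (-0.01) each lay below pyruvate kinase (0.83). In AP, 3 steps were higher and 9 lower, with glucose transport lowest at -0.85.

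GPI1, glucose 6-phosphate isomerase, is not a member but was the largest exception among the early steps in VP. It had 70.1, 69.4 and 63.9 FPKM in WT VP, DLP and AP and 119, 100.3 and 66.6 FPKM in MYC.

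**Figure D3:**
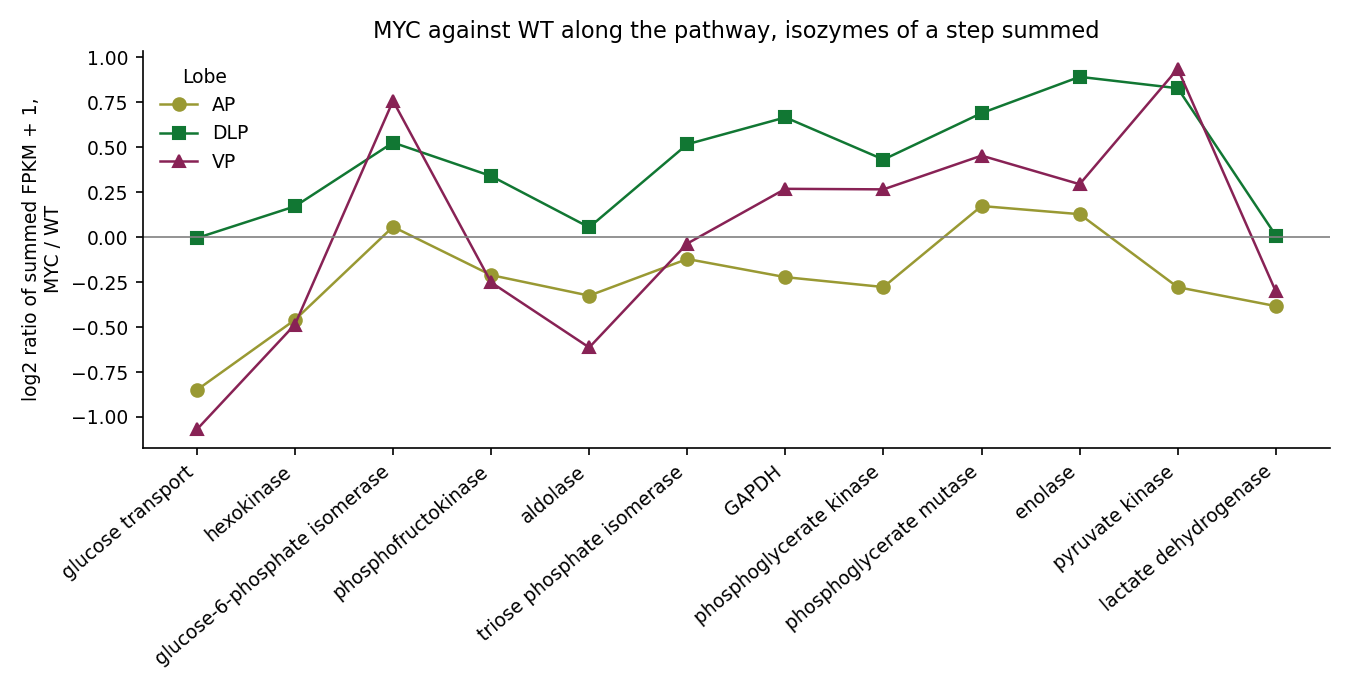
Log2 ratio of MYC over WT of the summed FPKM + 1 of each of 12 steps (vertical axis), ordered along the pathway (horizontal axis), with 1 line per lobe. The VP line is lowest at glucose transport (-1.07) and highest at pyruvate kinase (0.94), moves up and down between them, and ends at -0.30 at lactate dehydrogenase. The DLP line starts near 0 at glucose transport and stays above 0 from there on, though aldolase and lactate dehydrogenase lie so near 0 that their main isozymes change sign under other scalings.

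Isozyme shares were computed from FPKM, which are scaled to transcript length. SLC2A1 made up 94.0% to 97.6% of the summed SLC2A1, SLC2A3 and SLC2A4 levels, ALDOA 99.0% to 99.6% of the aldolases, and PKLR, the liver pyruvate kinase, had at most 0.0234 FPKM. HK2 made up 76.4%, 72.3% and 65.2% of the summed HK1, HK2 and HK3 levels in WT VP, DLP and AP and 71.7%, 67.4% and 52.9% in MYC. Its share was thus lower in MYC in each lobe, by the most in AP. HK3, a form of white blood cells, made up at most 2.07%, in MYC DLP.

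The phosphofructokinases differed most between lobes. PFKP made up 22.2% of the family in WT VP, 41.9% in WT DLP and 48.6% in WT AP, and 15.8%, 41.8% and 43.7% in MYC VP, DLP and AP. PFKM, the muscle-type subunit, made up 27.2%, 23.8% and 13.2% in WT and 38.5%, 18.1% and 23.3% in MYC. VP of both genotypes therefore had the lowest PFKP share and the highest PFKM share of its genotype. LDHA made up 93.2% to 93.3% of the LDHA and LDHB levels in the 3 WT lobes, and 90.1%, 93.9% and 89.2% in MYC VP, DLP and AP, so the LDHB share was higher in MYC in VP and AP. Of the enolases other than ENO1 and ENO1B, the neuronal form ENO2 was lower in MYC in each lobe, with log2 ratios of -0.78, -0.39 and -0.62 in VP, DLP and AP, and the muscle form ENO3 had 4.27 to 6.35 FPKM.

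**Figure D4:**
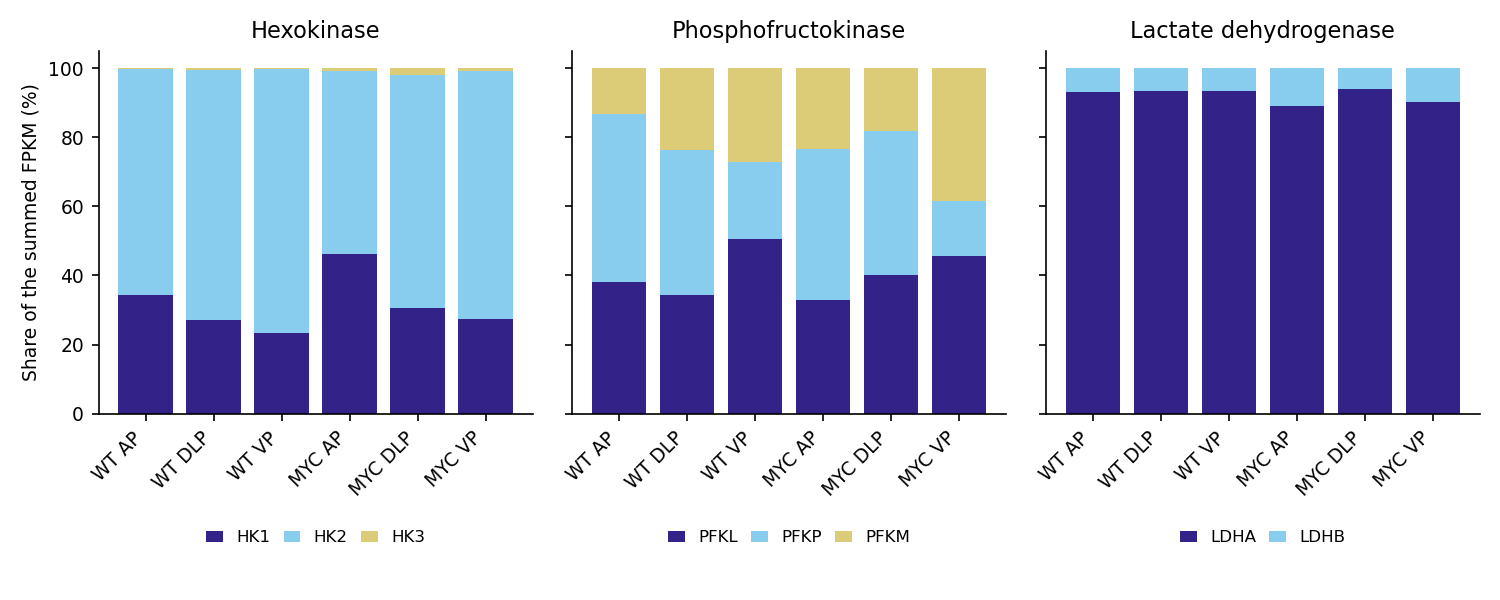
Share of the summed FPKM (vertical axis, %) of each isozyme of hexokinase, phosphofructokinase and lactate dehydrogenase in the 6 libraries. HK2 exceeds HK1 in every library with its lowest share in MYC AP (52.9%), and PFKP has its lowest shares in WT VP (22.2%) and MYC VP (15.8%).

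Lobes of the same mouse were then compared. In WT, 8 of the 10 members were lower in VP than in AP and 2 (HK2 and ENO1) higher, with a median log2 ratio of -0.37. PFKP was 3.04-fold lower and the only member past 2-fold, where 10.3% of all genes were lower and 7.89% higher. PGK1 and SLC2A1 followed at 1.82-fold and 1.68-fold lower. Between WT DLP and WT AP, 9 members were lower in DLP, with a median of -0.36, and none passed 2-fold, where 1.31% of all genes were lower and 3.85% higher. Between WT VP and WT DLP, 4 members were higher and 6 lower in VP, with a median of -0.02, and none passed 2-fold, where 6.29% of all genes were lower and 2.63% higher. This direction was not stable, since 4 of 5 other scalings gave 6 higher and 4 lower, with medians of 0.05 to 0.22, and the ratio to KRT8 and KRT18 gave 10 lower. The WT order AP, DLP, VP, from high to low, held for SLC2A1, PFKP, ALDOA, PGK1 and LDHA, though for ALDOA the counting interval of VP against DLP included 0.

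In the MYC mouse, DLP exceeded the library labelled MYC AP for 9 members, all but HK1, with a median log2 ratio of 0.34, and none passed 2-fold, where 4.54% of all genes were higher and 3.49% lower. As a ratio to KRT8 and KRT18 the median was -0.09, with 4 members higher and 6 lower. VP was lower than AP for 8 members, with a median of -0.41, and HK2 and PKM were higher. PFKP, 3.94-fold lower, passed 2-fold, where 16.1% of all genes were lower and 8.98% higher, and PKM was 1.98-fold higher. VP was lower than DLP for 9 members, with PKM the exception, and the median was -0.65. SLC2A1 (2.88-fold) and PFKP (4.03-fold) passed 2-fold there, where 14.0% of all genes were lower and 3.54% higher. These comparisons share libraries with each other and with the comparisons of MYC and WT, so they are not independent of them. VP libraries had the highest luminal keratins, with KRT8 at 1292 FPKM in WT VP against 446 in WT DLP and 400 in WT AP. As a ratio to KRT8 and KRT18, 10 members were at least 2-fold lower in WT VP than in WT AP and 9 than in WT DLP, but so were 67.8% and 80.1% of all genes.

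The other genes of glucose metabolism were taken as 9 lists of 86 genes in all, of which 72 averaged 1 FPKM or more. In VP, 4 of the 72 (5.56%) were at least 2-fold higher in MYC and 4 (5.56%) lower, shares close to those of all genes. In DLP 5 (6.94%) were higher and 1 (1.39%) lower, beside 6.46% and 3.39% of all genes, and in AP 1 (1.39%) was higher and 0 lower, beside 2.05% and 0.599%. The median log2 ratios over the 72 genes were 0.10 in VP, -0.01 in DLP and 0.16 in AP.

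The pentose phosphate pathway, which diverts glucose 6-phosphate to NADPH and ribose, had 6 of 7 genes above 0 in VP (median 0.57), 4 of 7 in DLP (0.38) and 7 of 7 in AP (0.41). PGLS, 6-phosphogluconolactonase, had 29.1 FPKM (WT) and 72.5 FPKM (MYC) in VP, 34.9 and 58.8 FPKM in DLP and 21.4 and 28.7 FPKM in AP. TKT, transketolase, had 30.3 and 63.8 FPKM in VP, 33.0 and 49.9 in DLP and 23.5 and 32.6 in AP. Both were thus at least 2-fold higher in MYC VP (2.49-fold and 2.11-fold), and G6PDX, the enzyme at the entry of the branch, was 1.52-fold higher.

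Hypoxia response genes lay mostly below WT in VP, 11 of 13 with a median log2 ratio of -0.40, around 0 in DLP, 7 above and 6 below, and on both sides in AP, 5 above and 8 below with a median of -0.11. ADM, adrenomedullin, had 22.2 FPKM in the WT and 8.87 FPKM in the MYC library of VP (-1.23), and NDRG1 62.2 and 27.6 FPKM (-1.15). HIF1A, a subunit of the hypoxia-inducible factor itself, had 53.6 and 29.4 FPKM in WT and MYC VP, 77.9 and 69.5 in DLP and 145 and 92.7 in AP. VEGFA, the vascular growth factor, had 49.5 FPKM in WT DLP and 103 in MYC DLP (1.04), and EGLN3, a prolyl hydroxylase that marks the factor for decay, 5.46 and 34.0 FPKM (2.44). Members of this list thus lay on both sides of 0, and in DLP 3 of them, EGLN3, VEGFA and ANKRD37, were at least 2-fold higher, beside 6.46% of all genes. NDRG1, ADM and P4HA2 were lower in DLP (-0.60, -0.51 and -0.85), and NDRG1 was also lower in AP, with 149.6 FPKM in WT and 81.6 FPKM in MYC (-0.87).

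Genes outside the naming rule, with a mean under 10 FPKM, made up the rest of the 2-fold counts and were named after their values were seen. In VP these were PDK1, a pyruvate dehydrogenase kinase (1.22), ADPGK (1.06), PDP1, a pyruvate dehydrogenase phosphatase (-1.69), and P4HA2 (-1.60). In DLP they were SLC16A3, a lactate exporter (1.06), ANKRD37 (1.41), SLC5A1, the sodium-glucose cotransporter (-1.50), and LDHD. LDHD, which oxidises D-lactate, had 2.54 FPKM (WT) and 5.36 FPKM (MYC) in VP, 3.14 and 25.4 in DLP and 2.19 and 15.4 in AP.

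**Figure D5:**
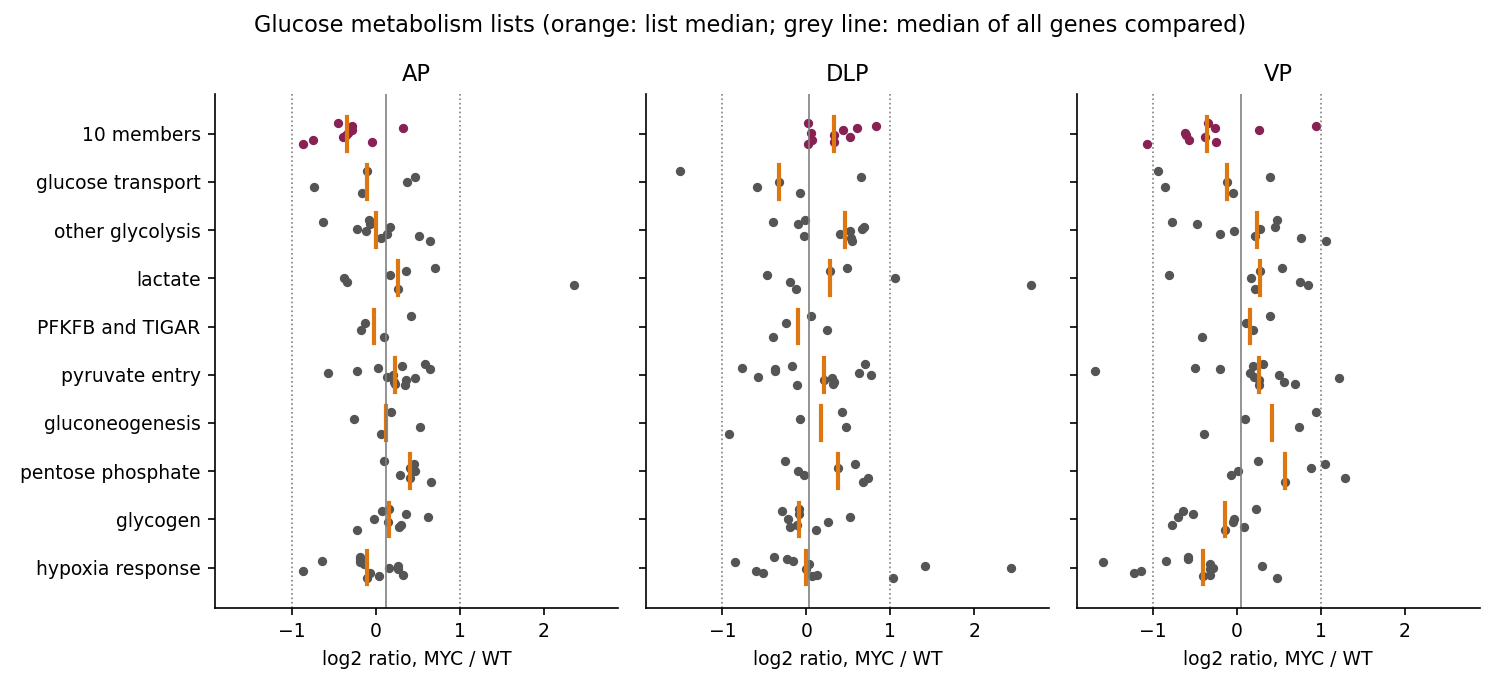
Log2 ratio of MYC over WT (horizontal axis) for the 10 glycolysis genes and for 9 lists of glucose metabolism genes in AP, DLP and VP, 1 point per gene, with orange bars at list medians, a grey line at the median of all genes and dotted lines at 2-fold. The members' median is -0.36 in VP and 0.32 in DLP, the hypoxia list has -0.40 in VP, and the pentose phosphate list has 0.57 in VP.

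Markers of several cell types differed between the same libraries, and their part in the glycolysis values was not tested. In VP, 7 of 9 hematopoietic markers were at least 2-fold higher in MYC and their summed level was 37.5 FPKM in WT and 206 in MYC. All 7 proliferation markers compared were at least 2-fold higher, with sums of 3.04 and 53.9 FPKM. Of 9 fibroblast markers 5 were at least 2-fold lower and 8 had a log2 ratio below 0, with sums of 697 and 210 FPKM, and the 8 luminal markers had sums of 3911 and 3209 FPKM. All 8 basal markers (794 and 528 FPKM) and all 7 smooth muscle markers compared (363 and 223 FPKM) had log2 ratios below 0.
In DLP, all 9 hematopoietic markers (82.4 and 319 FPKM) and all 7 proliferation markers (3.17 and 54.1 FPKM) were at least 2-fold higher in MYC. Of the 8 basal markers 6 were above 0, with sums of 1655 and 2167 FPKM. The 9 fibroblast markers had sums of 1403 and 760 FPKM, with 2 higher and 3 lower by at least 2-fold, and all 7 smooth muscle markers were below 0 (424 and 248 FPKM). In AP all 7 smooth muscle markers (237 and 377 FPKM) and 8 of 9 fibroblast markers (1304 and 1495 FPKM) were above 0, with 3 of the fibroblast markers at least 2-fold higher, and 6 of 8 luminal markers were below 0 (2033 and 1649 FPKM). The hematopoietic sum was 162 FPKM in WT and 167 in MYC, and the proliferation sum 4.95 and 17.2 FPKM. The basal sum was 2427 FPKM in WT AP and 1326 in the library labelled MYC AP, with 1 of 8 markers higher and 2 lower by at least 2-fold. The median log2 ratios of the basal markers, -0.59 in VP, 0.32 in DLP and -0.41 in AP, thus had the same signs as those of the members. Seminal vesicle genes had a sum of 0.112 FPKM in WT AP, with 6 of 8 listed at 0, and of 524 FPKM in MYC AP, with 3 of the 3 genes compared at least 2-fold higher. In DLP their sum was 0.186 FPKM in WT and 11.3 FPKM in MYC, with 2 of the 3 at least 2-fold higher. Of the skeletal muscle genes, MYOG was listed at 0 in every library and MYH4 had at most 0.00402 FPKM, while ACTA1 had 4.75 to 13.9 FPKM. The 3 such genes compared included 2 that were at least 2-fold lower in MYC DLP and 1 that was higher in AP. Over the WT lobes, which differed in PFKP, PGK1 and SLC2A1, the basal sum was 794, 1655 and 2427 FPKM in VP, DLP and AP, the endothelial sum 30.2, 141 and 196 FPKM and the hematopoietic sum 37.5, 82.4 and 162 FPKM, in the same order as those genes. The luminal sum was 3911, 1996 and 2033 FPKM, the fibroblast sum 697, 1403 and 1304 FPKM and the smooth muscle sum 363, 424 and 237 FPKM, which do not follow it. HK1, HK2, PFKL, ENO1 and PKM did not follow that order either.

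The members did not all vary together over the 6 libraries. On the log2(FPKM + 1) scale, SLC2A1 had a Pearson's r of 0.98 with LDHA and 0.97 with ALDOA, whereas PKM had -0.35 with the mean of the other members. HK2 had 0.17 with the mean of the others, and LDHA, with 0.90, was the member closest to it. Among 5350 further genes that averaged 10 FPKM or more, the 5 most like the mean of the members were CLDN1, a tight junction protein (0.98), CDKN1A, an inhibitor of cyclin-dependent kinases (0.98), KRT16, a keratin of stressed epithelium (0.98), CAP1 (0.97) and FAS, a death receptor (0.97). CLDN1 had 48.2, 91.0 and 223 FPKM in WT VP, DLP and AP and 25.9, 173 and 88.6 FPKM in MYC, which shows the shared order, with MYC VP lowest and WT AP and MYC DLP highest. These correlations are descriptions over 6 libraries that share 2 mice, a preparation and their scaling.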

How the data were processed

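The authors aligned single-end 75-base reads of poly(A)-selected, stranded libraries with STAR and quantified genes with Cufflinks. The submitters' processing notes name the build mm10 and bcl2fastq 2.18, and the gene annotation is not given in the sources used here. They deposited 1 table of 6 libraries, and 0 columns were left out. The deposited values were taken to be FPKM made by the authors with Cufflinks, although the study's methods speak of read counts, because they are not whole numbers and low values change in steps set by transcript length. The unit itself is not given in the sources used here. FPKM are not counts, so no count model was run. The single-cell and ChIP-seq data of the study were not analysed here.

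Log2 ratios used a pseudocount of 1, genes averaging 1 FPKM or more, and a threshold of 2-fold, and with 1 library per group no test was made. Depth was recovered from the steps of FPKM below 0.3 in genes with 1 exon and 1 transcript (56.7% to 69.6% of them came within 3% of whole reads). Reads per gene used mean transcript lengths of GENCODE M1, and Clopper-Pearson intervals cover counting error only. Upstream windows and gene positions are RefSeq on GRCm38.p6, the build that mm10 names.

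The members and lists were chosen with earlier results of these data known. Named were the members, their isozymes, listed genes averaging 10 FPKM or more with a 2-fold difference in a lobe, and the 5 genes most alike. GPI1, G6PDX and HIF1A were named after their values were seen, and 1 gene that the rule covers is not reported here. As alternatives, libraries were scaled by median-of-ratios size factors, to equal sums with and without the 20 highest genes, by a trimmed mean of log ratios or as a ratio to KRT8 and KRT18. A pseudocount of 0.1, no filter, a minimum mean of 10 FPKM and a threshold of 1.5-fold were also tried. Summing ENO1 with ENO1B, and leaving out ENO1 and ALDOA, were added after seeing the data. The computations were tested on simulated libraries. Software was matplotlib 3.10.9, scipy 1.17.1, pandas 2.3.3 and numpy 2.4.6 on Python 3.11.15.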

Additional observations from a re-analysis of the deposited data

Results flagged for a closer look

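For 5 members the log2 ratio of MYC over WT pointed one way in a lobe and the other way in another, by at least 1.2-fold each. These differences were not tested, for want of replicate libraries. PKM was higher in MYC VP and DLP and lower in AP, and its log2 ratio exceeded that of AP by 1.21 in VP and by 1.11 in DLP. PGK1 was likewise above WT in VP and DLP and below it in AP, with differences of 0.54 and 0.71, and its VP value was near 0 under another scaling. PFKL was higher in DLP and lower in VP and AP, so that VP less DLP was -0.90 and DLP less AP was 0.92. PFKP did likewise, with -0.93 and 0.67. ENO1 was lower in VP and higher in the other lobes (VP less DLP -0.87, VP less AP -0.59), and with ENO1B added it was higher in VP as well (0.35).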

How the results depend on the processing

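A fit paired over the 3 lobes was not run, since the lobes of a genotype come from 1 mouse and genotype and mouse would stay confounded in it. The median log2 ratio of the members kept its sign in each lobe under every alternative, from -0.62 to -0.11 in VP, 0.11 to 0.34 in DLP and -0.49 to -0.16 in AP. Counts of members past the threshold are small and moved. At 1.5-fold they were 4 in VP, 2 in DLP and 2 in AP for MYC against WT, beside 31.7%, 22.9% and 10.7% of all genes in either direction. Between WT lobes they were 3 for VP against AP, 2 for DLP against AP and 1 for VP against DLP, where 37.9%, 17.2% and 24.9% of all genes passed 1.5-fold in either direction. Between MYC lobes they were 4, 2 and 6, beside 46.1%, 21.6% and 35% of all genes. SLC2A1 passed 2-fold in AP with size factors and with the trimmed mean (count 1), where 1.08% and 1.03% of all genes were lower. It missed 2-fold in VP as a ratio to KRT8 and KRT18 (-0.80), where PKM passed it (1.2) and 8.14% of all genes were higher. The same keratin ratio gave 10 members for WT VP against AP, 9 for WT VP against DLP, and 9 each for MYC VP against AP and against DLP, but 67.8%, 80.1%, 66.3% and 46.5% of all genes were also lower under it. MYC VP against AP gave 2 with size factors and with the trimmed mean (1 higher and 1 lower), 2 with equal sums without the highest genes (both lower) and 3 with equal sums. Of all genes, 25.4%, 26.5%, 25.8% and 27.3% passed 2-fold in either direction under these scalings, in that order. Between WT VP and DLP the members' median turned from -0.02 to between 0.05 and 0.22 under 4 scalings, and between MYC DLP and AP from 0.34 to -0.09 with the keratin ratio. The cause of these shifts was not tested. With 25.4 M reads, WT AP is the shallowest library.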
